A study of Homo sapiens with 22 samples.

Results

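The transcripts of 9 genes of the aryl hydrocarbon receptor pathway and of retinoid metabolism were followed in LUHMES cells, a human mesencephalic line that can be turned into neurons and is used as a model of Parkinson's disease. The genes were chosen by symbol: AHR, AHRR, CYP1A1, CYP1B1, TIPARP, LRAT, CYP26A1, CYP26B1 and ALDH1A3. They filled 10 of the 34679 rows of the gene table, since AHRR stood under 2 Ensembl identifiers. RNA was sequenced from 22 libraries in 6 groups. The groups were cells overexpressing alpha-synuclein given 6-OHDA with quercetin (3 libraries), the same with rutin (3), alpha-synuclein cells given 6-OHDA alone (4), untreated alpha-synuclein cells (4), wild-type cells given 6-OHDA (4) and untreated wild-type cells (4). Both flavonol groups carry alpha-synuclein and 6-OHDA, so neither compound was measured without the toxin or in wild-type cells. 6-OHDA (6-hydroxydopamine) is an oxidising analogue of dopamine that kills catecholamine neurons. Quercetin is a plant flavonol, and rutin is its glycoside, the same flavonol core carrying a sugar pair. The sources used here do not give the doses, the exposure times, the promoter of the alpha-synuclein transgene or whether the line is 1 clone.

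The aryl hydrocarbon receptor, encoded by AHR, waits in the cytoplasm in a complex with the chaperone HSP90. When bound by a flat aromatic ligand, flavonols among them, it moves to the nucleus, pairs with ARNT and switches on genes that hold its response element. CYP1A1 and CYP1B1 encode the classical detoxifying enzymes among those targets, while TIPARP and AHRR encode proteins that damp the receptor. Retinoid metabolism runs beside it: LRAT stores retinol as esters, ALDH1A3 makes retinoic acid from retinal, and CYP26A1 and CYP26B1 destroy retinoic acid. CYP26A1 and LRAT are themselves known retinoic acid targets, and retinoic acid is a differentiation signal for neurons.

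Promoter sequences are shown for TIPARP, CYP26A1 and CYP26B1, since levels of these genes were higher in every quercetin library than in any alpha-synuclein library given 6-OHDA alone. The share of all genes that separate in this way was not counted, so separation of libraries, here and below, is a description. At full separation an exact two-sided permutation test gives p = 0.0571 for 3 against 4 libraries and p = 0.1 for 3 against 3. The sequences come from RefSeq (GRCh38.p14), where TIPARP has 3 starts and CYP26A1 has 2. For both, the start shown is one whose window held a motif. Each line is the 250 bases before a RefSeq start, 5′ to 3′ on the strand of the gene. Capitals mark the core of the receptor's response element, GCGTG on either strand, in TIPARP, and a retinoic acid response element of the DR5 kind in CYP26A1. CYP26B1 held a match to neither.
TIPARP, chr3:156674340-156674589, plus strand: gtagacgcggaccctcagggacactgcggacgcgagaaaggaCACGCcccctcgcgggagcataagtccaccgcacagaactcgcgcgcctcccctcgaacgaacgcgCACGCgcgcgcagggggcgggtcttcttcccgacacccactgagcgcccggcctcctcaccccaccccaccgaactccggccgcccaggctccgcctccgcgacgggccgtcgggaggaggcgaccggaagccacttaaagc
CYP26A1, chr10:93073643-93073892, plus strand: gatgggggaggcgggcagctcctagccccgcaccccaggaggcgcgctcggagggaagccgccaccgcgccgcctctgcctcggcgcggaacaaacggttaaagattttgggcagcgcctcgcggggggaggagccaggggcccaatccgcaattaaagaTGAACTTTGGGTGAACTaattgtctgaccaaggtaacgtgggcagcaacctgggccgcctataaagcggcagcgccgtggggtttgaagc
CYP26B1, chr2:72147863-72148112, minus strand: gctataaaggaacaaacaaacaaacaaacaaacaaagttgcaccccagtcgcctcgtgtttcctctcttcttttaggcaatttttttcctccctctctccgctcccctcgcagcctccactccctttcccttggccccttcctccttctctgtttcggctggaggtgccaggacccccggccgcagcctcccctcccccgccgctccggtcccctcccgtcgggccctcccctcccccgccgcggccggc

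The TIPARP promoter held 2 copies of the core, at -208 to -204 and at -142 to -138 from the start. The core is short and was found in 36.5% of 35116 RefSeq promoters of 300 bases (250 before and 50 after the start), both strands read, so a match is a description of the letters only. CYP1A1 held it at -57 to -53 and AHR at 38 to 42, after the start. AHRR and ALDH1A3 promoters held it too, and LRAT, also higher in every quercetin library, held neither motif in this window. The DR5 element of CYP26A1 lay at -90 to -74, and 0.0883% of the same promoters held a match to it. A longer form of the core, TGCGTG, was found in 9.54% of the same promoters, and a retinoic acid element of the DR2 kind in 0.0399%. No member promoter examined held either of these. CYP1B1 had no entry.

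Each library held 1866396 to 20667106 counts, so that a floor of 3 counts stood at 0.168 to 1.49 CPM. CPM means counts per 1e+06 counts of a library, here with library sizes scaled by TMM, a step that corrects for a few genes taking a large share of the reads. Differences are log2 fold changes from edgeR's quasi-likelihood test with their standard error (SE), Benjamini-Hochberg adjusted over 16601 genes and called at an adjusted p under 0.05. Library names put all treated alpha-synuclein cells on lane 2 of the flow cell and the other groups on lane 1, so lane and group cannot be told apart for the effect of 6-OHDA in alpha-synuclein cells, for genotype under 6-OHDA or for their interaction. Replicate 4 of the alpha-synuclein cells given 6-OHDA stood apart: it lay at -1.47 on the first principal component (40.8% of the variance), against 35.8 to 45.3 for the other treated libraries and -76.4 to -53.5 for the untreated ones. The labels do not say whether replicates are separate cultures; a p-value here therefore reflects the spread among libraries, which may be technical.

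Of the 9 genes, 6 passed the filter on low counts and filled 7 tested rows, while AHR, CYP1A1 and CYP26A1 did not pass. LRAT passed through only 5 libraries above the filter's 1.40 CPM: all 3 quercetin libraries, 1 rutin library and 1 library of wild-type cells given 6-OHDA, so it had to differ between some groups. ALDH1A3 passed through 12 libraries, all given 6-OHDA, with 0 of 4 above 1.40 CPM in either untreated group, so it too had to differ. Their filtered calls, and counts or medians that include them, are therefore descriptions. The second AHRR identifier, ENSG00000286169, is in neither annotation used here and held 69.8% to 93.9% of the AHRR counts of a library. The ENSG00000063438 locus of AHRR (chr5:304176-438291, plus strand, GENCODE 29 on GRCh38) shares 49681 bases with PDCD6 on the same strand, and the sources used here do not say how reads were split among these rows. AHR (chr7:16916359-17346152) likewise shares 46858 bases with AC019117.2 on the same strand. CYP1B1 (chr2:38066973-38109902, minus strand) overlaps RMDN2 by 170 bases on the opposite strand, and the sources do not say whether the counting used strand. The other members lie at chr15:74719542-74725610 (CYP1A1, minus strand), chr3:156673235-156706770 (TIPARP, plus), chr4:154626945-154753118 (LRAT, plus), chr10:93073475-93077890 (CYP26A1, plus), chr2:72129238-72148038 (CYP26B1, minus) and chr15:100877714-100916626 (ALDH1A3, plus).

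The receptor itself was hardly counted. AHR had 0, 0 and 0 counts in the quercetin libraries and 0, 4 and 0 counts in the rutin libraries, against 7, 10, 0 and 4 counts in the alpha-synuclein libraries given 6-OHDA alone. Untreated alpha-synuclein libraries held 0, 1, 10 and 6 counts, wild-type libraries given 6-OHDA 2, 0, 0 and 0 counts, and untreated wild-type libraries 0, 0, 10 and 0 counts. Libraries with counts and libraries at 0 occurred in 5 of the 6 groups, and the groups overlapped. Summed over libraries, the AHR level in quercetin was at least 8.37-fold lower than with 6-OHDA alone, taking 3 counts over the quercetin group as the floor, but the exact two-sided permutation test over libraries gave p = 0.229 (adjusted p = 0.667 over 21 such tests). No AHR comparison passed the exact test (p = 0.143 at the lowest). In the flavonol comparisons this test cannot give a p under 0.0571, so none of them could pass. Fitted without the filter, the AHR change with quercetin was -6.09 ± 1.76 and not called (SE; edgeR adjusted p = 0.0814). ARNT, the partner of the receptor on DNA, was measured well and averaged 16.1 ± 5.75 CPM in wild-type cells given 6-OHDA and 35.8 ± 3.32 CPM in untreated ones (SD, n = 4 each), a change of -1.12 ± 0.17 on the log2 scale (SE; edgeR adjusted p = 1.08e-05). In alpha-synuclein cells ARNT averaged 24.6 ± 4.47 CPM with 6-OHDA and 40.7 ± 3.82 CPM untreated (SD, n = 4 each), a change of -0.75 ± 0.16 (SE; edgeR adjusted p = 0.000475). The interaction was not called (0.37 ± 0.23, SE; edgeR adjusted p = 0.284), and under 6-OHDA ARNT was higher in alpha-synuclein than in wild-type cells (0.55 ± 0.18, SE; edgeR adjusted p = 0.0228). With quercetin ARNT averaged 17.8 ± 1.33 CPM and with rutin 17.2 ± 0.674 CPM (SD, n = 3 each). All these libraries lay below the 20.4 to 29.1 CPM with 6-OHDA alone, and neither difference was called.

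AHRR, the repressor that competes with the receptor for ARNT, was described by its 2 rows apart. The ENSG00000286169 row held 11.4, 15.7, 12.1 and 10.9 CPM in wild-type cells given 6-OHDA, against 7.51, 6.57, 5.79 and 6.49 CPM in untreated wild-type cells. Every treated library lay above every untreated one, and the row rose by 0.93 ± 0.19 on the log2 scale (SE; edgeR adjusted p = 0.000287). In alpha-synuclein cells the same row held 10.8, 10.0, 7.05 and 11.6 CPM with 6-OHDA, against 9.72, 6.75, 7.82 and 10.9 CPM untreated. Here the groups overlapped, and the difference was 0.20 ± 0.17 (SE; edgeR adjusted p = 0.365). The same row held 9.42, 11.8 and 10.7 CPM under quercetin and 9.04, 9.65 and 10.8 CPM under rutin, overlapping with 6-OHDA alone. The ENSG00000063438 row, at 0.70 to 3.52 CPM over all libraries, passed the threshold in none of the 8 comparisons. Its change with 6-OHDA in wild-type cells had the opposite sign to that of the other row (-0.54 ± 0.36, SE; edgeR adjusted p = 0.272). The 2 rows correlated at r = -0.30 over the 22 libraries. Under quercetin the ENSG00000063438 row averaged 2.79 ± 0.779 CPM, under rutin 1.35 ± 0.805 CPM (SD, n = 3 each) and with 6-OHDA alone 2.19 ± 0.665 CPM (n = 4).

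The plot of receptor gene levels shows these rows beside the receptor's targets.

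**Figure D1:**
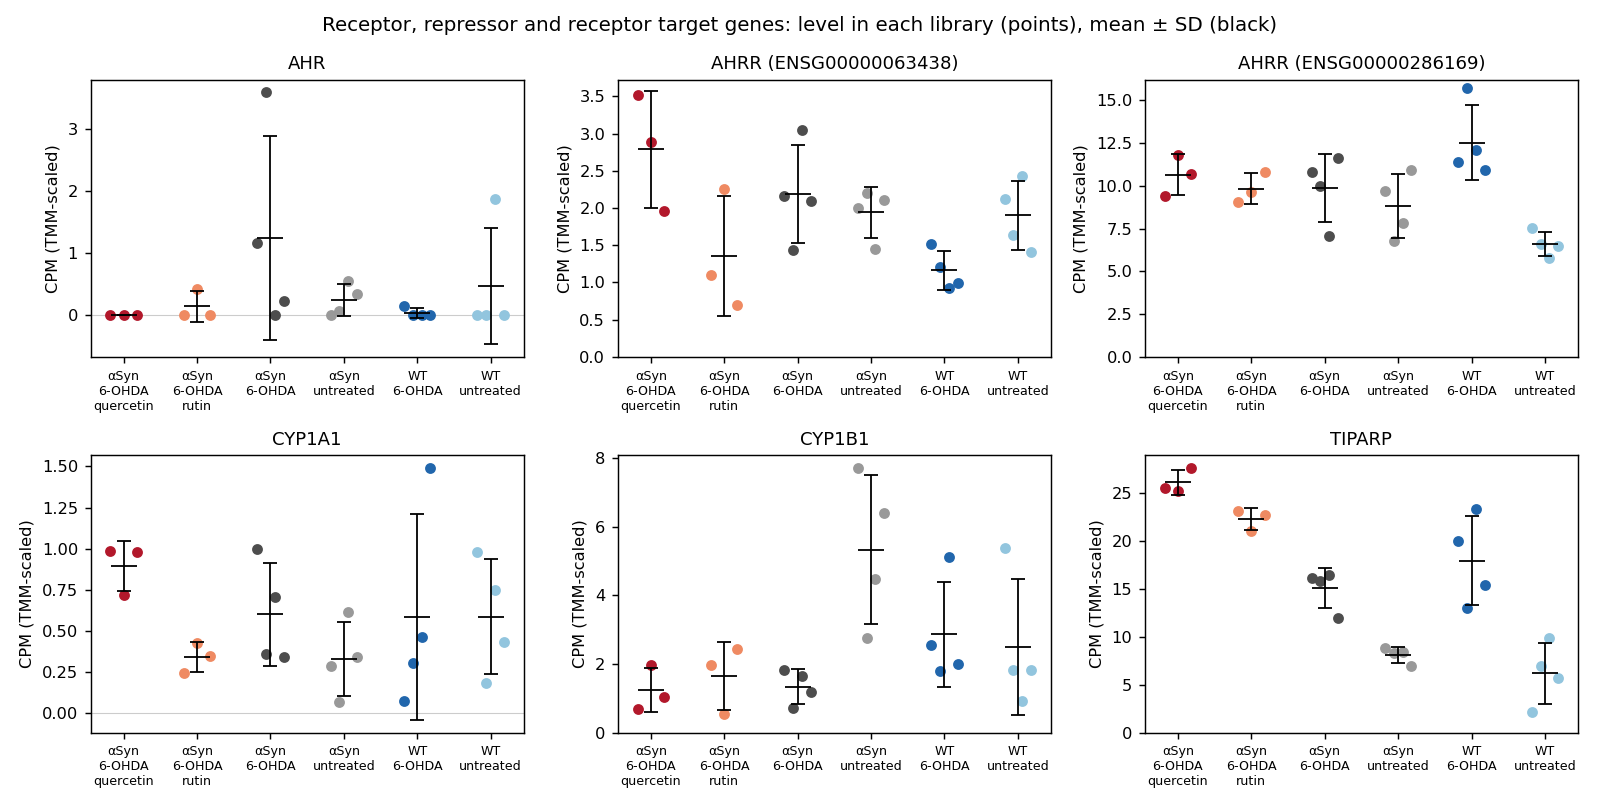
CPM (TMM-scaled, linear axes that differ between panels) of AHR, both AHRR rows, CYP1A1, CYP1B1 and TIPARP in the 22 libraries by group. Points are libraries, black bars the mean ± SD. TIPARP sits at 25.2 to 27.6 CPM with quercetin and 21.0 to 23.1 CPM with rutin, above the 11.9 to 16.4 CPM of alpha-synuclein cells given 6-OHDA alone.

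CYP1A1, a target of the receptor whose transcript is the usual readout of its activity, stayed at 1 to 14 counts in every library. It had 0.984, 0.719 and 0.982 CPM with quercetin and 0.244, 0.429 and 0.350 CPM with rutin, against 0.997, 0.359, 0.705 and 0.341 CPM with 6-OHDA alone. All quercetin libraries lay above all rutin libraries, and both groups overlapped with 6-OHDA alone. Pooled counts of 32 with quercetin and 7 with rutin gave a ratio of 2.54 (exact 95% interval 1.10 to 6.82, counting error only). The exact two-sided permutation test gave p = 0.1 for quercetin against rutin, the smallest that 3 against 3 allows, and the ratio to 6-OHDA alone was 1.67 with quercetin (0.892 to 3.27) and 0.659 with rutin (0.229 to 1.69). CYP1A1 had 1, 1, 1 and 3 counts in wild-type cells given 6-OHDA, against 6, 1, 4 and 4 counts in untreated ones, and untreated alpha-synuclein cells had 2, 1, 11 and 6 counts.

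CYP1B1, which oxidises oestrogens and polycyclic hydrocarbons, held 1.83, 0.718, 1.64 and 1.19 CPM in alpha-synuclein cells given 6-OHDA, against 7.72, 2.75, 4.47 and 6.40 CPM in untreated ones. Every treated library was below every untreated one, and CYP1B1 fell by 1.93 ± 0.49 on the log2 scale (SE; edgeR adjusted p = 0.00256). Wild-type cells given 6-OHDA held 2.56, 1.81, 5.12 and 1.99 CPM, against 5.39, 1.82, 0.934 and 1.84 CPM in untreated wild-type cells. These overlapped, and the change was 0.13 ± 0.52 (SE; edgeR adjusted p = 0.853). The order of the group means was untreated alpha-synuclein, 6-OHDA wild-type, untreated wild-type, rutin, 6-OHDA alpha-synuclein and quercetin, with each neighbouring pair overlapping. With a flavonol, CYP1B1 held 0.703, 1.96 and 1.05 CPM under quercetin and 1.96, 0.536 and 2.45 CPM under rutin, overlapping with each other and with 6-OHDA alone. Neither flavonol passed the test, with wide limits: the log2 difference from 6-OHDA alone ran from -1.25 to 1.12 with quercetin and from -1.20 to 1.39 with rutin (95% intervals).

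TIPARP encodes a mono-ADP-ribosyltransferase that marks the receptor for removal. It held 20.0, 13.0, 23.3 and 15.4 CPM in wild-type cells given 6-OHDA, against 2.12, 6.93, 9.90 and 5.73 CPM in untreated wild-type cells. In alpha-synuclein cells the levels were 16.1, 15.8, 16.4 and 11.9 CPM with 6-OHDA, against 8.86, 8.26, 8.38 and 6.91 CPM untreated. In both genotypes the treated libraries lay above the untreated ones without overlap. TIPARP rose by 1.56 ± 0.26 on the log2 scale in wild-type cells (SE; edgeR adjusted p = 3.41e-05) and by 0.88 ± 0.24 in alpha-synuclein cells (SE; edgeR adjusted p = 0.00457). The call in alpha-synuclein cells was lost without the 2 untreated libraries whose names hold several barcode numbers (0.79, edgeR adjusted p = 0.0536). The interaction, -0.68 ± 0.35, did not pass (edgeR adjusted p = 0.182).

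With a flavonol added, TIPARP held 25.5, 25.2 and 27.6 CPM under quercetin and 23.1, 21.0 and 22.7 CPM under rutin, all above the 4 libraries with 6-OHDA alone. Its log2 change was 0.81 ± 0.24 with quercetin (SE; 95% interval 0.31 to 1.32; edgeR adjusted p = 0.0794) and 0.58 ± 0.25 with rutin (SE; 0.06 to 1.11; adjusted p = 0.402), so neither passed over all genes. DESeq2 called the quercetin difference (adjusted p = 0.0141) and gave TIPARP no adjusted p for rutin or for quercetin against rutin. Quercetin libraries also all lay above rutin libraries, by 0.23 ± 0.26 (SE; 95% interval -0.30 to 0.76; edgeR adjusted p = 0.861). Without replicate 4 of the 6-OHDA group, its lowest library, the quercetin change was 0.69 ± 0.26 (SE; edgeR adjusted p = 0.277).

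Among the retinoid genes, LRAT was at 0 or 1 count in most libraries and well counted in a few. It held 26, 68 and 55 counts with quercetin (3.66, 4.44 and 3.86 CPM) and 1, 47 and 0 counts with rutin (0.122, 5.04 and 0 CPM), against 0, 0, 1 and 0 counts with 6-OHDA alone. Wild-type cells given 6-OHDA held 46, 0, 1 and 1 counts, and all 8 untreated libraries of both genotypes held 0. All 3 quercetin libraries were positive at similar levels, while 1 library carried nearly all counts in the rutin group and in wild-type cells given 6-OHDA. At the level of the positive rutin library, the other rutin libraries would have held 41.2 and 14.4 counts, against the 1 and 0 found. At the level of the positive wild-type library, its companions would have held 11.5, 7.45 and 6.97 counts, against the 0, 1 and 1 found.

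LRAT, which entered the test through the libraries where it is high, had 0 of 4 libraries above the filter with 6-OHDA alone. It was called with quercetin (log2 change 6.38 ± 1.45, SE; edgeR adjusted p = 0.0325), with a pooled ratio of 125 to 6-OHDA alone whose exact counting interval reached from 22.0 to 4.96e+03 and which stands on 1 count with 6-OHDA alone. Fitted without the filter, the change was 6.38 (edgeR adjusted p = 0.0063). The call was lost without replicate 4 of the 6-OHDA group (adjusted p = 0.167) and without any 1 of the quercetin libraries (adjusted p = 0.0684 to 0.0907), and within lane 2 alone the change was 6.43 and not called (adjusted p = 0.0835). With rutin the change of 5.42 ± 1.59 was not called (SE; edgeR adjusted p = 0.221), and quercetin against rutin gave 0.96 ± 0.86 (SE; 95% interval -0.86 to 2.79; adjusted p = 0.806). In wild-type cells LRAT was called higher with 6-OHDA (edgeR adjusted p = 0.00865), at least 20.2-fold by pooled counts over a floor of 3 counts in the untreated group, and not without replicate 1 (adjusted p = 0.256). It was called lower in alpha-synuclein than in wild-type cells under 6-OHDA (log2 change -5.13 ± 1.60, SE; edgeR adjusted p = 0.0256), and this too was lost without that wild-type library (adjusted p = 0.525), without replicate 1 (0.0565) or without replicate 4 (0.116) of the alpha-synuclein cells.

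CYP26A1, a degrading enzyme strongly responsive to retinoic acid, held 2, 2 and 5 counts in the quercetin libraries. It was at 0 in all 3 rutin libraries and in all 4 libraries with 6-OHDA alone, and had 1 count in 1 library each of untreated alpha-synuclein cells and wild-type cells given 6-OHDA. Quercetin was the only group in which every library held a count. The pooled level was at least 2.51-fold higher than with 6-OHDA alone and at least 1.67-fold higher than with rutin, taking 3 counts over each group as the floor. The exact two-sided permutation test gave p = 0.0571 against 6-OHDA alone and p = 0.1 against rutin, the smallest that 3 against 4 and 3 against 3 libraries allow (adjusted p = 0.667 over 21 tests). Without the filter on low counts edgeR did not call it (adjusted p = 0.181 against 6-OHDA alone).

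CYP26B1, the other retinoic acid hydroxylase, gave the clearest difference under quercetin. It held 5.91, 8.10 and 6.38 CPM with quercetin and 3.30, 3.86 and 4.90 CPM with rutin, against 3.32, 2.51, 2.58 and 2.95 CPM with 6-OHDA alone. Quercetin libraries lay above every other library of the study, while rutin overlapped with 6-OHDA alone by 1 library. CYP26B1 rose 2.36-fold with quercetin, or 1.24 ± 0.20 on the log2 scale (SE; 95% interval 0.81 to 1.66; edgeR adjusted p = 0.00874). Leaving out quercetin replicate 2, its highest library, ended the call at a change of 1.09 (adjusted p = 0.0542), and so did fitting only the groups compared (1.27, adjusted p = 0.146). Without replicate 4 of the 6-OHDA group the change was 1.25 ± 0.23 and stayed called (SE; edgeR adjusted p = 0.0196). Within lane 2 alone, which holds all the libraries compared, the change was 1.27 and not called (edgeR adjusted p = 0.0694).

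With 6-OHDA, CYP26B1 held 4.29, 3.33, 3.72 and 2.98 CPM in wild-type cells, against 1.14, 2.19, 2.06 and 1.95 CPM untreated. It rose by 1.02 ± 0.23 on the log2 scale (SE; edgeR adjusted p = 0.000783). In alpha-synuclein cells the treated libraries held 2.51 to 3.32 CPM, just above the 2.27 to 2.43 CPM of the untreated ones, and the change of 0.32 ± 0.20 did not pass (SE; edgeR adjusted p = 0.199). The order of the means was quercetin, rutin, 6-OHDA wild-type, 6-OHDA alpha-synuclein, untreated alpha-synuclein and untreated wild-type. Rutin overlapped with 6-OHDA wild-type, which overlapped with 6-OHDA alpha-synuclein, and the other neighbouring pairs did not overlap.

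ALDH1A3, which makes retinoic acid, held 2.56, 2.12, 6.05 and 2.49 CPM in wild-type cells given 6-OHDA, against 0.653, 0.182, 0 and 0 CPM untreated. In alpha-synuclein cells it held 2.49, 3.23, 0.940 and 0.454 CPM with 6-OHDA, against 0, 0.138, 0 and 0.171 CPM untreated. The treated and untreated groups did not overlap within either genotype. The fitted change, for a gene that passed the filter only through libraries given 6-OHDA, was 3.91 ± 0.80 on the log2 scale in wild-type cells (SE; edgeR adjusted p = 0.000323) and 3.91 ± 0.81 in alpha-synuclein cells (SE; edgeR adjusted p = 0.000474). Fitted without the filter the changes were 3.84 in wild-type and 3.87 in alpha-synuclein cells (edgeR adjusted p = 8.52e-05 and 0.000128). Pooled counts were 59 with 6-OHDA and 5 untreated in wild-type cells, a ratio of 14.9 (exact counting interval 6.04 to 47.6), and 36 with 6-OHDA and 5 untreated in alpha-synuclein cells, a ratio of 13.4 (5.22 to 43.6). Quercetin (3.09, 2.48 and 1.40 CPM) and rutin (1.59, 1.61 and 2.80 CPM) libraries lay within the range of the alpha-synuclein cells given 6-OHDA alone.

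The plot of retinoid gene levels sets these 4 genes side by side.

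**Figure D2:**
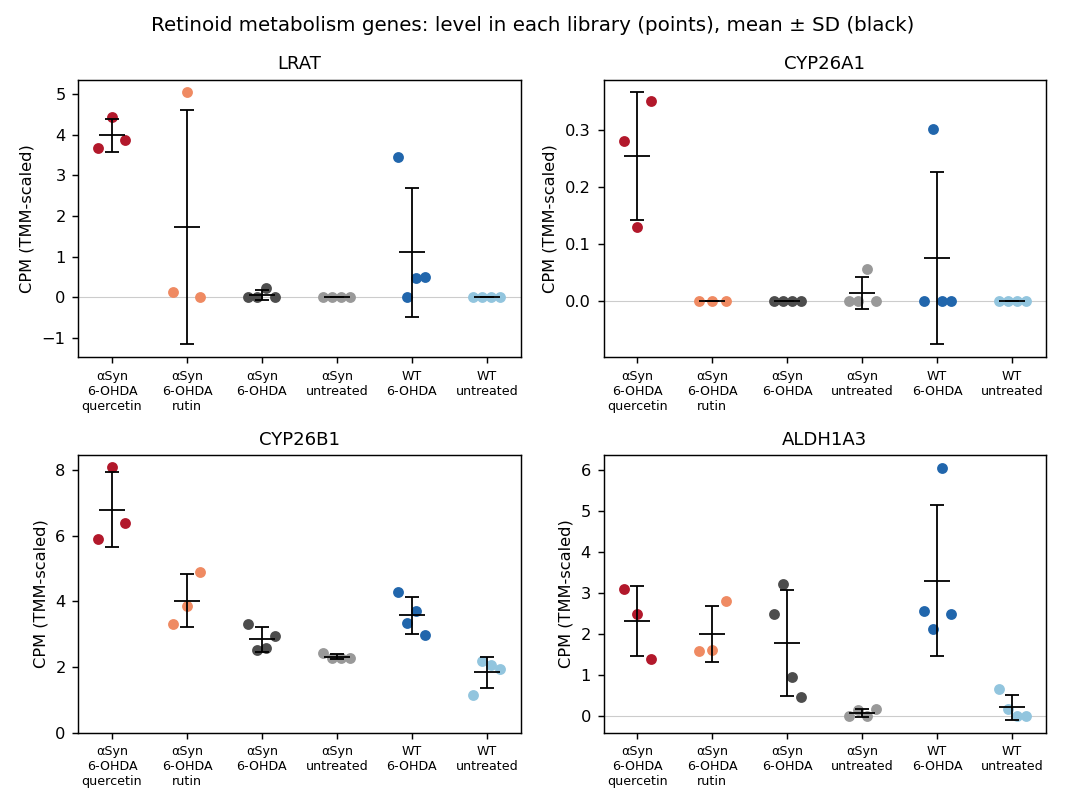
CPM (TMM-scaled, linear axes that differ between panels) of LRAT, CYP26A1, CYP26B1 and ALDH1A3 in the 22 libraries by group. Points are libraries, black bars the mean ± SD (the SD can reach below 0). LRAT reaches 3.66 to 4.44 CPM in all quercetin libraries and 5.04 CPM in 1 rutin library, and CYP26B1 is highest with quercetin.

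Counted over the members, 6-OHDA was called in 5 of 7 tested rows in wild-type cells, all higher, where the share over all tested genes was 52% (25.8% higher, 26.2% lower). In alpha-synuclein cells it was called in 3 of 7, TIPARP and ALDH1A3 higher and CYP1B1 lower, where the share over all tested genes was 47.1% (22.9% higher, 24.2% lower). Without replicate 1 of the treated wild-type cells the first count was 4, since LRAT was lost. Without replicate 4 of the treated alpha-synuclein cells the second stayed at 3, with CYP1B1 at -1.80, TIPARP at 1.00 and ALDH1A3 at 4.42 (edgeR adjusted p = 0.0129, 0.00265 and 5.88e-05). The count in wild-type cells includes LRAT and ALDH1A3, and that in alpha-synuclein cells ALDH1A3, which the filter let through only where they are high. With shares this large, a call under 6-OHDA sets no member apart from other genes. The median log2 change of the tested rows was 1.02 in wild-type cells, beside 0.07 over all tested genes, and 0.32 in alpha-synuclein cells, beside 0.05. Summed neuron markers (8 of 8 measured, none at 0 in a whole group) stood at 3120 to 5230 CPM in the libraries given 6-OHDA with or without a flavonol and at 7240 to 9510 CPM in untreated ones. Summed oligodendrocyte markers (5 of 5) stood at 32.9 to 67.1 CPM in libraries given 6-OHDA and 73.2 to 94.8 CPM in untreated ones, and summed microglia markers (5 of 5) at 6.02 to 15.2 CPM in libraries given 6-OHDA and 3.83 to 6.21 CPM in untreated ones. Of the microglia markers, 1 was at 0 throughout wild-type cells given 6-OHDA, 1 throughout untreated alpha-synuclein cells and 2 throughout untreated wild-type cells. Astrocyte markers (5 of 5) summed to 27.4 to 30.9 CPM with 6-OHDA and 18.3 to 25.5 CPM untreated in wild-type cells, and overlapped in alpha-synuclein cells (21.0 to 33 CPM with 6-OHDA and 17.3 to 22.6 CPM untreated). The 2 measured neural progenitor markers summed to 19.5 to 28.7 CPM with 6-OHDA and 37.4 to 54.7 CPM untreated in wild-type cells, and to 17.8 to 33 CPM with 6-OHDA and 38.9 to 80.1 CPM untreated in alpha-synuclein cells. Fibroblast markers (5 of 5) were lower with 6-OHDA without overlap in alpha-synuclein cells (19.4 to 24.6 CPM, against 25.5 to 33.1 CPM untreated) and overlapped in wild-type cells, and epithelial markers (5 of 5) overlapped in both. The part of these markers in the members' differences was not tested, and in bulk RNA fewer cells of a type and less RNA per cell cannot be told apart.

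The 6-OHDA responses of the 2 genotypes were compared by their interaction, called in 2 of 7 member rows, both lower in alpha-synuclein cells, where 21.6% of all genes were called (11.2% higher, 10.5% lower). These were CYP1B1 (-2.06 ± 0.71, SE; edgeR adjusted p = 0.0427) and the ENSG00000286169 row of AHRR (-0.73 ± 0.26, SE; edgeR adjusted p = 0.0444). Both lay near the threshold. Across the alternatives the CYP1B1 interaction kept its call in 13 of 27 and the AHRR row in 6 of 28, and without replicate 4 of the treated alpha-synuclein cells CYP1B1 gave -1.93 (edgeR adjusted p = 0.0865) and the AHRR row -0.84 (edgeR adjusted p = 0.028). The other AHRR row, ENSG00000063438, had an interaction of the opposite sign that was not called (0.73 ± 0.46, SE; edgeR adjusted p = 0.286). The AHRR rows summed gave -0.51 ± 0.22 (SE; edgeR adjusted p = 0.103). In untreated cells alpha-synuclein was called in 0 of 7 rows by edgeR and 0 by DESeq2, where edgeR called 0.651% of all genes. An unadjusted edgeR p under 0.05 was held by 2 of the 7 rows, beside 1534 of all 16601 genes tested. DESeq2 gave LRAT and ALDH1A3 no adjusted p in this comparison. CYP26B1 stood there at 2.27 to 2.43 CPM in alpha-synuclein cells and 1.14 to 2.19 CPM in wild-type cells (0.33 ± 0.21, SE; edgeR adjusted p = 0.749). Under 6-OHDA genotype was called in 1 of 7 rows, the LRAT row described above, where 27.3% of all genes were called (14.4% higher, 12.9% lower).

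**Figure D3:**
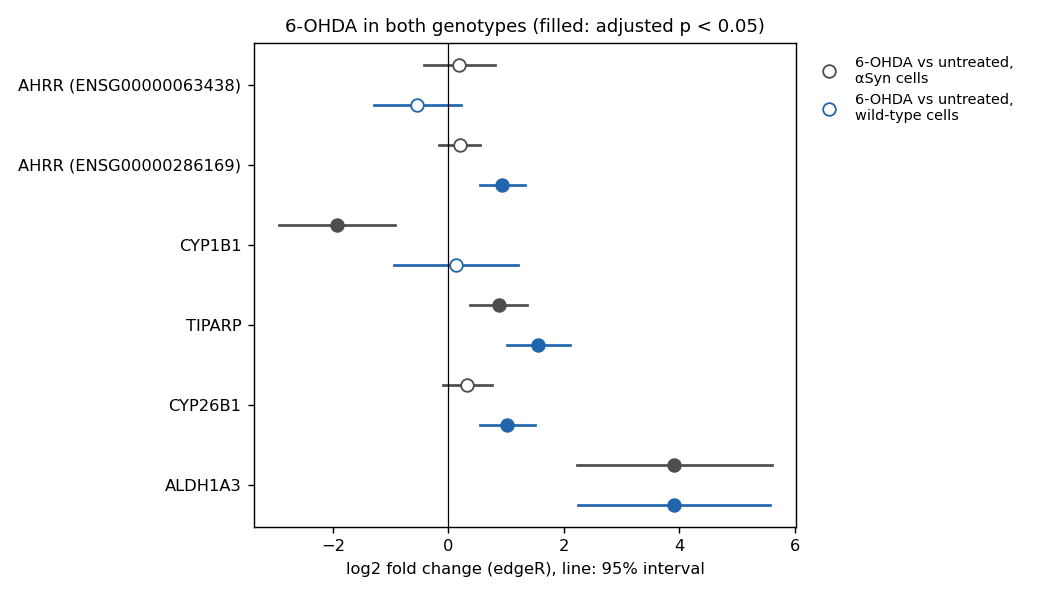
Log2 fold change with 6-OHDA against untreated cells (x axis, edgeR; lines are 95% intervals) for 6 tested rows (y axis) in alpha-synuclein and wild-type cells; filled points passed an adjusted p of 0.05. LRAT is left out because both untreated groups hold 0 counts. CYP1B1 is at -1.93 in alpha-synuclein cells and, not called, at 0.13 in wild-type cells, and ALDH1A3 is at 3.91 in both.

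The plot of 6-OHDA responses shows that the points of TIPARP and CYP26B1 lie further right in wild-type than in alpha-synuclein cells, though the interaction passed for neither (CYP26B1 -0.70 ± 0.31, SE; edgeR adjusted p = 0.111).

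Quercetin and rutin were set against 6-OHDA alone, whose libraries both comparisons share, and against each other, 3 pairs in all. No dose or time is given for either, so matched exposure cannot be shown. Quercetin was called in 2 of 7 rows, CYP26B1 and LRAT, both higher, where 2.53% of all genes were called (0.56% higher, 1.97% lower). LRAT passed the filter through the quercetin libraries, so its part of this count is no support, while CYP26B1 lay above the filter in 21 of 22 libraries. Rutin was called in 0 of 7 rows, where 0% of all genes were called. An unadjusted edgeR p under 0.05 was held by 2 rows, and by 1790 genes over all those tested. DESeq2 called 285 genes for rutin but gave none of the 7 rows an adjusted p, so it could not call a member. Quercetin against rutin was called in 0 of 7 rows, where 0.00602% of all genes, 1 gene, was called. There too 2 rows had an unadjusted edgeR p under 0.05, beside 1481 of all 16601 genes tested. In that comparison too, DESeq2 gave none of the 7 rows an adjusted p.

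Among the marker sums, neural progenitor markers stood at 36.4 to 42.7 CPM with quercetin and 29.1 to 53.3 CPM with rutin, against 17.8 to 33 CPM with 6-OHDA alone, so that quercetin did not overlap with 6-OHDA alone. Fibroblast markers did not overlap for quercetin either (25.5 to 27.4 CPM with quercetin and 19.6 to 31.3 CPM with rutin, against 19.4 to 24.6 CPM with 6-OHDA alone). The other 5 marker sums with quercetin overlapped with 6-OHDA alone, and the part of these markers in the quercetin differences was not tested.

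The p-values of edgeR were also adjusted over the 3 pairs of each gene in place of all genes. This leaves out the other members and all other genes. Since the members were chosen with earlier results of these data known, passing it is a description. On this adjustment CYP26B1 passed for quercetin against 6-OHDA alone (edgeR adjusted p = 1.41e-05) and for quercetin against rutin (edgeR adjusted p = 0.00173). Rutin against 6-OHDA alone did not pass (edgeR adjusted p = 0.104). The quercetin minus rutin difference of CYP26B1 was 0.81 ± 0.22 on the log2 scale (SE; 95% interval 0.36 to 1.26), which over all genes had an adjusted p of 0.203. On the same adjustment TIPARP passed against 6-OHDA alone for quercetin (edgeR adjusted p = 0.00922) and for rutin (edgeR adjusted p = 0.0463), and not for quercetin against rutin (edgeR adjusted p = 0.38). LRAT passed against 6-OHDA alone for quercetin (edgeR adjusted p = 0.00136) and for rutin (edgeR adjusted p = 0.00541), and not for quercetin against rutin (edgeR adjusted p = 0.28). It entered the test through the libraries where it is high, and nearly all its rutin counts came from 1 library. For both AHRR rows, CYP1B1 and ALDH1A3 no pair passed. The 95% intervals for quercetin against rutin ran from -1.44 to 1.12 for CYP1B1 and from -1.02 to 1.59 for ALDH1A3, so differences of that size in either direction could not be seen at this precision.

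**Figure D4:**
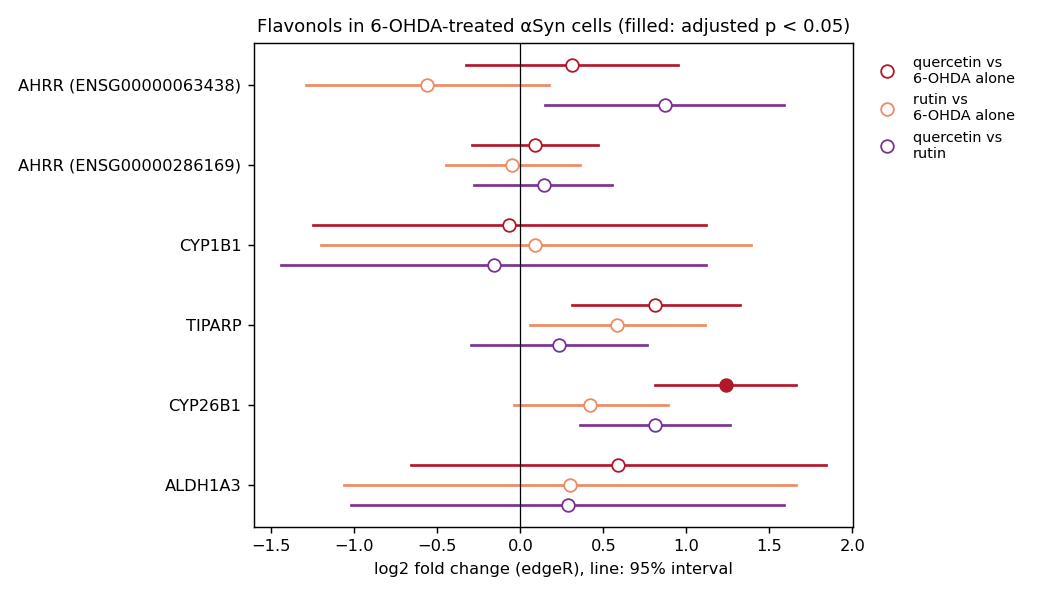
Log2 fold change (x axis, edgeR; lines are 95% intervals) of 6 tested rows (y axis) in 6-OHDA-treated alpha-synuclein cells for quercetin against 6-OHDA alone, rutin against 6-OHDA alone and quercetin against rutin; filled points passed an adjusted p of 0.05 over all genes. LRAT is left out because 6-OHDA alone holds 1 count. CYP26B1 with quercetin, at 1.24, is the filled point.

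The plot of flavonol changes also shows TIPARP to the right of 0 with both compounds, at 0.81 with quercetin and 0.58 with rutin, and the ENSG00000063438 row of AHRR on opposite sides of 0, at 0.31 with quercetin and -0.56 with rutin. Quercetin minus rutin for that row was 0.87 ± 0.35 (SE; 95% interval 0.15 to 1.59; edgeR adjusted p = 0.447, and 0.0611 over the 3 pairs). The authors' own purpose for the flavonol groups, per the study's design text, was to test protection of the cells; survival is not analysed here.

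Other genes of the pathways were read from lists chosen for their roles. Each count of calls below stands beside the share over all genes tested, with 6-OHDA 52% in wild-type cells (25.8% higher, 26.2% lower) and 47.1% in alpha-synuclein cells (22.9% higher, 24.2% lower), and nothing particular to a list is read from its count. Of the receptor's complex and partners, 9 of 10 genes were tested, in 10 rows. With 6-OHDA 3 rows rose and 3 fell in wild-type cells, while 1 rose and 2 fell in alpha-synuclein cells, that is 6 of 10 beside 52% and 3 of 10 beside 47.1%. HSP90AB1, a gene of the HSP90 chaperone that holds the receptor, averaged 351 ± 48.5 CPM with 6-OHDA and 76.1 ± 6.04 CPM untreated in wild-type cells (SD, n = 4 each), a log2 change of 2.20 ± 0.17 (SE; edgeR adjusted p = 1.17e-09). HSP90AA1, a more abundant HSP90 gene of the list, was not called there. It averaged 1770 ± 110 CPM with 6-OHDA and 2040 ± 134 CPM untreated in wild-type cells (SD, n = 4 each). PTGES3, the p23 co-chaperone of the same complex, rose by 1.07 ± 0.16 in wild-type cells (SE; edgeR adjusted p = 7.89e-06), and its interaction of -1.28 ± 0.22 was called (edgeR adjusted p = 0.00083). XPO1, the exportin that carries the receptor out of the nucleus, fell by 0.93 ± 0.10 in wild-type cells, and NCOA1, a coactivator, by 0.89 ± 0.08 (SE each; edgeR adjusted p = 6.47e-08 and 1.22e-08).

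Of 12 receptor targets, 6 genes in 7 rows were tested; with 6-OHDA 4 rose and 0 fell in wild-type cells, and 4 rose and 1 fell in alpha-synuclein cells, that is 4 of 7 beside 52% and 5 of 7 beside 47.1%, with TIPARP, CYP1B1 and AHRR among the 7 rows. NQO1, a quinone reductase that is also a target of the oxidative stress factor NFE2L2, had the largest log2 change of the tested genes of the list. It averaged 263 ± 16.3 CPM with 6-OHDA and 17.4 ± 3.84 CPM untreated in wild-type cells, and 263 ± 56.3 CPM with 6-OHDA and 16.2 ± 3.61 CPM untreated in alpha-synuclein cells (SD, n = 4 each). Its log2 change was 3.94 ± 0.18 in wild-type and 4.01 ± 0.17 in alpha-synuclein cells (SE; edgeR adjusted p = 3.22e-13 and 2.76e-13). NFE2L2 itself rose by 0.61 ± 0.11 in wild-type and 0.82 ± 0.10 in alpha-synuclein cells, and SLC7A5, an amino acid transporter, by 1.05 ± 0.22 in alpha-synuclein cells. With quercetin 0 of the 7 rows were called by edgeR, and NQO1 averaged 273 ± 19.4 CPM with quercetin and 285 ± 35.2 CPM with rutin (SD, n = 3 each), against 263 ± 56.3 CPM with 6-OHDA alone (n = 4).

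Of the genes for retinol handling, 11 of 15 were tested, and with 6-OHDA 6 rose and 1 fell in wild-type cells, 3 rose and 2 fell in alpha-synuclein cells, that is 7 of 11 beside 52% and 5 of 11 beside 47.1%. The 6 that rose include LRAT, which rests on 1 library. STRA6, the retinol importer, rose by 1.52 ± 0.30 in wild-type and 1.26 ± 0.28 in alpha-synuclein cells (SE; edgeR adjusted p = 0.000229 and 0.000903). RDH10, which turns retinol into retinal, rose by 1.46 ± 0.40 in wild-type and 1.43 ± 0.34 in alpha-synuclein cells (SE; edgeR adjusted p = 0.00403 and 0.00142). BCO2, a carotenoid-cleaving enzyme, rose by 1.11 ± 0.19 in alpha-synuclein cells (SE; edgeR adjusted p = 4.86e-05).

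For synthesis and breakdown of retinoic acid, 4 of 8 genes were tested; 3 rose in wild-type cells, 2 rose in alpha-synuclein cells and 0 fell in either, that is 3 of 4 beside 52% and 2 of 4 beside 47.1%. Those called were ALDH1A3, ALDH1A2 and CYP26B1 in wild-type cells, and ALDH1A3 and ALDH1A2 in alpha-synuclein cells. ALDH1A2, a further retinal dehydrogenase, rose by 1.76 ± 0.42 in wild-type and 1.82 ± 0.37 in alpha-synuclein cells (SE; edgeR adjusted p = 0.00131 and 0.000397). ALDH1A1, the dehydrogenase known from midbrain dopamine neurons, was at 0 in all libraries without a flavonol and reached 0.141 CPM at most. Of the binding proteins and receptors, 8 of 11 were tested, with 3 higher and 1 lower in wild-type cells and 1 higher and 1 lower in alpha-synuclein cells, that is 4 of 8 beside 52% and 2 of 8 beside 47.1%. FABP5, which carries retinoic acid and fatty acids, rose by 3.34 ± 0.22 in wild-type and 2.51 ± 0.20 in alpha-synuclein cells (SE; edgeR adjusted p = 1.09e-10 and 2.64e-09), while RARA, a retinoic acid receptor, fell by 0.70 ± 0.09 in wild-type and 1.14 ± 0.09 in alpha-synuclein cells (SE; edgeR adjusted p = 8.76e-07 and 1.24e-09). RXRA, the common partner of nuclear receptors, was the one gene of all these lists called for alpha-synuclein in untreated cells (0.41 ± 0.08, SE; edgeR adjusted p = 0.0205).

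Of 16 retinoic acid targets, 9 were tested, with 2 higher and 2 lower in each genotype, that is 4 of 9 beside 52% and 47.1%. MEIS1, a homeobox factor, fell by 0.72 ± 0.11 in wild-type and 0.54 ± 0.11 in alpha-synuclein cells (SE; edgeR adjusted p = 1.33e-05 and 0.000222), and NRIP1, a nuclear receptor corepressor, fell by 0.74 ± 0.11 in wild-type and 0.37 ± 0.11 in alpha-synuclein cells (SE; edgeR adjusted p = 6.97e-06 and 0.00639). Of the 9 tested targets, 1 was called with quercetin, CYP26B1, beside 2.53% of all genes tested. The median log2 change of the 9 with quercetin was 0.05, beside -0.02 over all tested genes. A response of this list as a whole was not tested. With quercetin the calls across all these lists were LRAT and CYP26B1, the members already described. Rutin against 6-OHDA alone and quercetin against rutin gave 0 calls in every list.

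**Figure D5:**
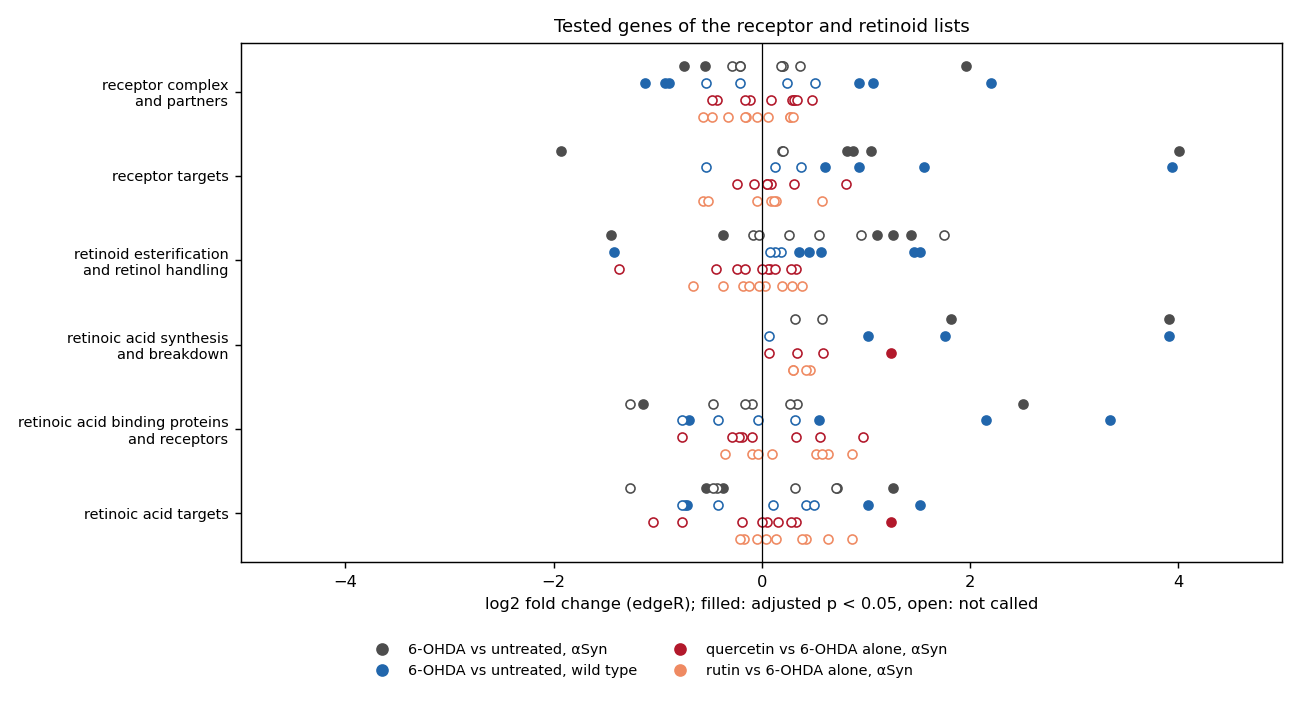
Log2 fold change (x axis, edgeR) of each tested gene of the 6 lists (y axis) for 6-OHDA against untreated in alpha-synuclein and wild-type cells and for quercetin and rutin against 6-OHDA alone; filled points passed an adjusted p of 0.05, open points did not. The axis ends at 5 either way, and 5 points of LRAT and RDH14 beyond it are not drawn; NQO1 lies near 4 with 6-OHDA in both genotypes.

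The plot of pathway lists shows filled points on both sides of 0 for 6-OHDA and, among the drawn points for the flavonols, only CYP26B1 with quercetin, which stands in 2 lists.

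The genes whose profile over the 22 libraries was most like that of each member were read from Pearson correlations of log2 CPM, as a description, since the libraries share treatment groups, lanes and depth. TIPARP was nearest to FAM83D (0.929), AC006122.1 (0.926) and MFSD2A (0.923). CYP26B1 was nearest to GLUL (0.920), TIPARP (0.881) and AC022167.5 (0.867), so another member stood among its closest. ALDH1A3 was nearest to CPNE6 (0.951), LRAT to AC093323.1 (0.771) with CYP26B1 also among its nearest (0.753), and CYP1B1 to AC006030.1 (0.811). The ENSG00000286169 row of AHRR was nearest to CEP170B (0.916) and the ENSG00000063438 row to MVB12B (0.797).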

How the data were processed

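Polyadenylated RNA of 22 libraries was measured. The values are estimated counts per gene as deposited by the authors, not normalised; per the submitters' processing notes, the tools were Trimmomatic 0.38 and kallisto 0.46.2, and the builds GRCh38 and hg38. The sources do not say how transcripts were summed to genes. Because kallisto shares ambiguous reads out among transcripts, levels of overlapping or near-identical genes are uncertain.

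Counts were rounded, filtered (filterByExpr, minimum count 10), scaled by TMM and fitted to the 6 group means in edgeR 4.0.16 (R 4.3.3), quasi-likelihood test, Benjamini-Hochberg over 16601 genes. Groups and replicate numbers came from the sample titles. The procedure was tested on simulated data. Of 34679 identifiers, 34658 (99.9%) matched GENCODE 29 without their version. Replicates differed by more than sampling noise (chi-square per degree of freedom 2.87 to 26.2). Intervals of pooled counts and floors (3 counts) cover counting error only. Exact permutation tests for genes under the filter, and the fit with AHRR rows summed, were added after seeing the data. Alternatives were RLE scaling, no filter, DESeq2 1.42.0, a replicate block, fits of the compared groups or lane 2 alone, leaving out each library, and leaving out 2 libraries whose names hold several barcode numbers. Named genes are the 9 members, and per list and comparison at most 4 called genes with the smallest adjusted p. Genes named outside that rule (ALDH1A1, HSP90AA1 and levels of called genes in other groups) were chosen after their values were seen. Members and lists were chosen with earlier results of these data known. Individual values of some genes outside the 9 members are not reported here.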

Additional observations from a re-analysis of the deposited data

Results flagged for a closer look

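Among 36 sets of 4 libraries (a member row in a group), 9 held 1 library far from the other 3. In 5 of the 9 (AHR and CYP26A1 in 2 groups each, LRAT in 1) the other libraries were all at 0, so even 1 count is far from them, and the chance of about 1 in 20 does not apply to these. For LRAT, replicate 1 of the wild-type cells given 6-OHDA held 3.46 CPM (46 counts), with 0.497 CPM in the next library. LRAT in replicate 3 of the alpha-synuclein cells given 6-OHDA, at 0.235 CPM, rested on 1 count. ALDH1A3 in replicate 3 of the wild-type cells given 6-OHDA held 6.05 CPM (13 counts), with 2.56 CPM next.

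TIPARP was lowest in replicate 4 of the alpha-synuclein cells given 6-OHDA, at 11.9 CPM, the library that also stood apart on the first principal component; the next held 15.8 CPM. CYP26B1 in replicate 1 of the untreated alpha-synuclein cells was at 2.43 CPM, while the others lay within 2.27 to 2.29 CPM.

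The remaining cases rest on few counts. AHR reached 1.87 CPM (10 counts) in replicate 3 of the untreated wild-type cells and 0.151 CPM (2 counts) in replicate 1 of the wild-type cells given 6-OHDA, with 0 in the other libraries of each group. CYP26A1 reached 0.302 CPM in replicate 2 of the wild-type cells given 6-OHDA and 0.0559 CPM in replicate 3 of the untreated alpha-synuclein cells, 1 count each.

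The response to 6-OHDA differed between alpha-synuclein and wild-type cells by the interaction term for CYP1B1 (-2.06 on the log2 scale) and for the ENSG00000286169 row of AHRR (-0.73). Lane and group cannot be told apart for either.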

How the results depend on the processing

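Same-numbered libraries did not deviate together over all tested genes (51 pairs, r -0.14 to 0.08, 0 over 0.1). A pairing that touches few genes could not be seen this way, and the labels do not say whether the numbers pair samples. With the replicate block quercetin called 120 genes and 1 member, against 420 genes and 2 members without it. The block gave 0 members for genotype under 6-OHDA. Over the member changes, 1492 alternative values kept direction and side of the threshold, or were not called in either fit, 52 lost the call, 3 gained it and 0 called changes reversed. The cause of the moves below was not tested. DESeq2 called 969 genes and 1 member for quercetin, 285 genes for rutin, 1.2e+02 (rounded) for quercetin against rutin, 230 for alpha-synuclein in untreated cells, and 0 members for genotype under 6-OHDA and for the interaction. For quercetin, TIPARP was the only member row with an adjusted p in DESeq2, so CYP26B1 and LRAT could not be called there. DESeq2 also gave no adjusted p to LRAT for genotype under 6-OHDA, or to CYP1B1 and LRAT for the interaction. The ENSG00000286169 row of AHRR had one for the interaction (DESeq2 adjusted p = 0.0506). No member row had one for rutin or for quercetin against rutin. Fitting only the groups compared gave 2 genes and 1 member for quercetin, 19 genes for quercetin against rutin, 23 for alpha-synuclein in untreated cells, 0 members for genotype under 6-OHDA and 1 for the interaction. Lane 2 alone gave 4 genes and 0 members for quercetin and 0 genes for quercetin against rutin. Without the filter the counts were 4 genes for rutin, 8 for quercetin against rutin and 1 member for the interaction; RLE scaling gave 2 genes for rutin. Without the 2 libraries with several barcode numbers, 11 genes were called for alpha-synuclein in untreated cells and 1978 genes and 0 members for the interaction, and TIPARP with 6-OHDA in alpha-synuclein cells fell short (0.79, adjusted p = 0.0536).

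Leaving out each library in turn gave these ranges of genes called: 7679 to 8843 for 6-OHDA in wild-type and 6714 to 8520 in alpha-synuclein cells, 33 (without untreated alpha-synuclein replicate 4) to 239 (without replicate 2) for alpha-synuclein in untreated cells, 3732 to 4652 for genotype under 6-OHDA, 2861 to 4298 for the interaction, 26 (without quercetin replicate 2) to 896 (without 6-OHDA replicate 1) for quercetin, 0 to 143 (without 6-OHDA replicate 1) for rutin and 0 to 58 (without 6-OHDA replicate 4) for quercetin against rutin. Members called ranged over 4 to 5, 3 to 3, 0 to 0, 0 to 1, 0 to 2, 0 to 3, 0 to 0 and 0 to 0 in the same order. TIPARP with quercetin passed without untreated wild-type replicate 1 (adjusted p = 0.0228), and its interaction without untreated wild-type replicate 3 (-0.98, adjusted p = 0.0435). ALDH1A3 kept its 6-OHDA calls in all alternatives, at 3.35 to 5.60 in wild-type and 3.44 to 4.54 in alpha-synuclein cells, and CYP1B1 in alpha-synuclein cells at -2.15 to -1.72. CYP26B1 with quercetin kept its call in 24 of 27 (1.09 to 1.32) and LRAT in 21 of 27. Depth limits AHR, CYP1A1 and CYP26A1, which stayed at or below 14 counts a library.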
